A study of Mus musculus with 55 samples.

Results

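The comparison described here sets 4 arrays of mice with the human PON1 transgene in its arginine form (R192) against 4 arrays labelled Pon1 knockout (KO), all from pups that received only the vehicle. The members were chosen by sample title, so that 8 of the 55 arrays of the series entered, and the 2 groups were compared over the 19938 genes with 1 gene symbol, of which 14949 were tested. Each array read cerebellar RNA of C57Bl/6 pups at postnatal day 22, after daily subcutaneous injections from day 4 to day 21. The groups are R192 on vehicle (genotype tgHuPON1R192, dimethyl sulfoxide, 4 arrays) and KO on vehicle (genotype Pon1-/-, dimethyl sulfoxide, 4 arrays). R192 and KO arrays at chlorpyrifos oxon (CPO) 0.35 mg/kg per day (5 and 5 arrays) and 0.5 mg/kg per day (5 and 3 arrays) were used to read the same genotype difference in other arrays, and Q192 (tgHuPON1Q192, 4 arrays) and wild type (WT, Pon1+/+, 6 arrays) on vehicle served for orientation. The labels name no promoter for the transgene, do not say whether the transgenic mice still carry mouse Pon1, and do not say whether each array is a separate animal or litter. P-values therefore measure only the spread between these arrays, which may in part be technical.

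Paraoxonase 1 is an esterase that is made in the liver, circulates on high-density lipoprotein and hydrolyses the active oxon forms of organophosphate insecticides. The arginine and glutamine forms at its variable position differ in how fast they hydrolyse CPO, the metabolite of chlorpyrifos that inhibits acetylcholinesterase. Without any CPO, the comparison asks what the genotype alone goes with in the cerebellum, a tissue whose RNA comes mostly from granule neurons, with Purkinje cells, interneurons and glia.

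Several facts about the arrays come before the results. Pon1 itself did not mark the knockout: its log2 level was 10.02, 10.19, 10.11 and 10.27 in R192, against 10.35, 9.95, 10.03 and 10.29 in the arrays labelled KO. The 2 groups overlapped, and the log2 difference was -0.02 (SE 0.14, limma adjusted p = 0.978). WT arrays on vehicle averaged 5.21 ± 0.24 (SD, n = 6), so the arrays labelled KO carried the high signal of the transgenic ones. The sources used here do not place the Pon1 probes against the disrupted stretch, so that the level cannot check the label. KO stands below for the arrays labelled KO, and every direction rests on that label. Replicate 4 labelled KO had an Xist level of 11.26, against 5.52 to 5.82 in the 3 other arrays labelled KO and 5.54 to 5.86 in R192, together with the lowest levels of the Y-linked genes, and 4 Y-linked genes were left out of the test. Replicate 1 labelled KO stood apart on the first principal axis and had the lowest oligodendrocyte and myelin signal of the 8 arrays (mean log2 level 10.24, against 10.85 to 11.06 in the 7 others).

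One array outside the comparison also touches it. Replicate 5 labelled KO at CPO 0.35 shares its description number with 2 R192 arrays of that dose, and of the 20 genes ranked first in the vehicle comparison (4 that passed, 8 more on the higher and 8 more on the lower side), it lay nearer to R192 than to the other KO arrays of its dose in 19. The share of all tested genes in which it lay nearer to R192 is not given. All 55 arrays share 1 estimate of each gene's spread, so this array widens the error of those genes in the vehicle comparison as well. Results are therefore given with all 55 arrays in the fit and again without this array.

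With all arrays in the fit, 4 genes passed an adjusted p of 0.05 between R192 and KO on vehicle (limma, Benjamini-Hochberg adjustment over 14949 genes), which is 0.0268% of those tested. Hspa4l, Plekhd1 and Snord53 were higher in R192 and Mrpl20 was lower. Before adjustment, 922 genes (6.17%) had a p under 0.05, 466 higher (3.12%) and 456 lower (3.05%). Without replicate 5 labelled KO at CPO 0.35, 14 genes passed (0.0937%), 12 higher and 2 lower in R192, and the 4 genes above were all among them. R192 replicates 3 and 4 share a description number, as do KO replicates 2 and 3, so that each group of 4 arrays holds 3 numbers. With arrays of the same number averaged and no date covariate, 0 genes passed and 1166 had an unadjusted p under 0.05 (limma). Adjusted p was 0.108 for Mrpl20, 0.136 for Hspa4l and for Plekhd1, and 0.325 for Snord53. Leaving out the date covariate alone, 3 of the 4 genes still passed and Plekhd1 had an adjusted p of 0.0927 (limma). Averaged and without replicate 5 labelled KO at CPO 0.35, an alternative chosen after seeing the data, 16 genes passed, and the 4 had adjusted p up to 0.00645.

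**Figure D1:**
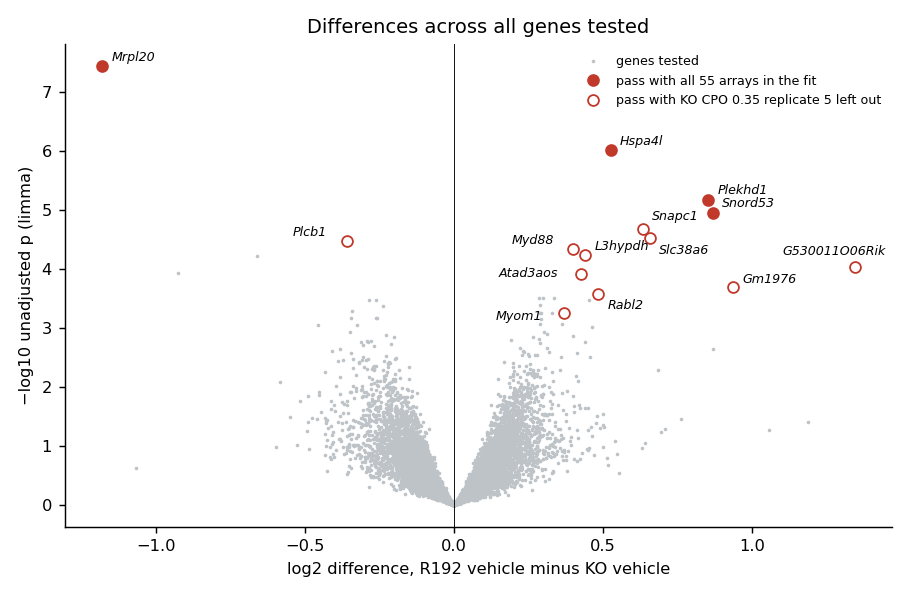
Each point is 1 of the 14949 genes tested, by its log2 difference between R192 and KO on vehicle (horizontal axis, R192 minus KO) and the negative log10 of its unadjusted limma p (vertical axis). Filled circles mark the 4 genes that pass with all 55 arrays in the fit, and open circles the 10 further genes that pass once KO CPO 0.35 replicate 5 is left out. Mrpl20 and Plcb1 are the only marked genes on the lower side.

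Mrpl20, on chromosome 4, encodes a protein of the large subunit of the mitochondrial ribosome. Its log2 level was 8.47, 8.17, 8.28 and 8.25 in the 4 R192 arrays, against 9.40, 9.47, 9.47 and 9.57 in the 4 arrays labelled KO. The groups were far apart, with the highest R192 array below the lowest KO array. The difference, R192 minus KO, was -1.18 in log2 units (SE 0.18, limma adjusted p = 0.000539), a 2.27-fold lower level. Leaving out any 1 of the 8 arrays kept the call, with adjusted p up to 0.00614. Averaging arrays of the same number, with no date covariate, ended it.

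Hspa4l, on chromosome 3, encodes a chaperone of the Hsp110 family that acts as a partner of Hsp70 proteins. It had log2 levels of 10.90, 11.12, 11.10 and 11.14 in R192, against 10.73, 10.47, 10.49 and 10.44 in KO. The groups did not overlap, although R192 replicate 1 and KO replicate 1 came within a short distance of each other. The log2 difference was +0.53 (SE 0.09, limma adjusted p = 0.00726), or 1.44-fold. Of the 13 tested heat shock genes, 6 were higher and 7 lower, with a median log2 difference of -0.01 against +0.01 over all genes, and Hspa4l was the 1 member that passed. Its nearest relative on the list, Hspa4, had a difference of -0.09 (adjusted p = 0.781), and Hspa8, the constitutive Hsp70 of the cell, one of -0.11 (adjusted p = 0.78). Leaving out KO replicate 2, R192 replicate 2 or R192 replicate 4 ended the Hspa4l call, with adjusted p up to 0.0717, and in a fit of the 8 arrays alone the adjusted p was 0.334.

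Plekhd1, on chromosome 12, encodes a protein with a pleckstrin homology domain. Its log2 level was 7.64, 7.55, 7.35 and 7.29 in R192, against 6.80, 6.62, 6.42 and 6.55 in KO. Every R192 array was above every array labelled KO. The log2 difference was +0.85 (SE 0.17, limma adjusted p = 0.0333), or 1.81-fold. The call held in 1 of the 8 fits that left out 1 of these arrays, with adjusted p up to 0.143.

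Snord53, on chromosome 17, is a small nucleolar RNA of the box C/D class, whose members guide methylation of other RNAs. Log2 levels were 7.61, 7.32, 7.37 and 7.64 in R192, against 6.61, 6.36, 6.67 and 6.79 in KO, again with no overlap. The difference was +0.87 (SE 0.18, limma adjusted p = 0.0413), or 1.83-fold. It too passed in 1 of the 8 fits without 1 array, with adjusted p up to 0.23. All 4 genes kept their direction on each array date taken alone: Mrpl20 had log2 differences of -1.11 on date 1 and -1.26 on date 2, Hspa4l +0.41 and +0.66, Plekhd1 +0.88 and +0.83, and Snord53 +0.98 and +0.78. With 2 arrays a group on a date, only Mrpl20 on date 2 passed (limma adjusted p = 0.0111).

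**Figure D2:**
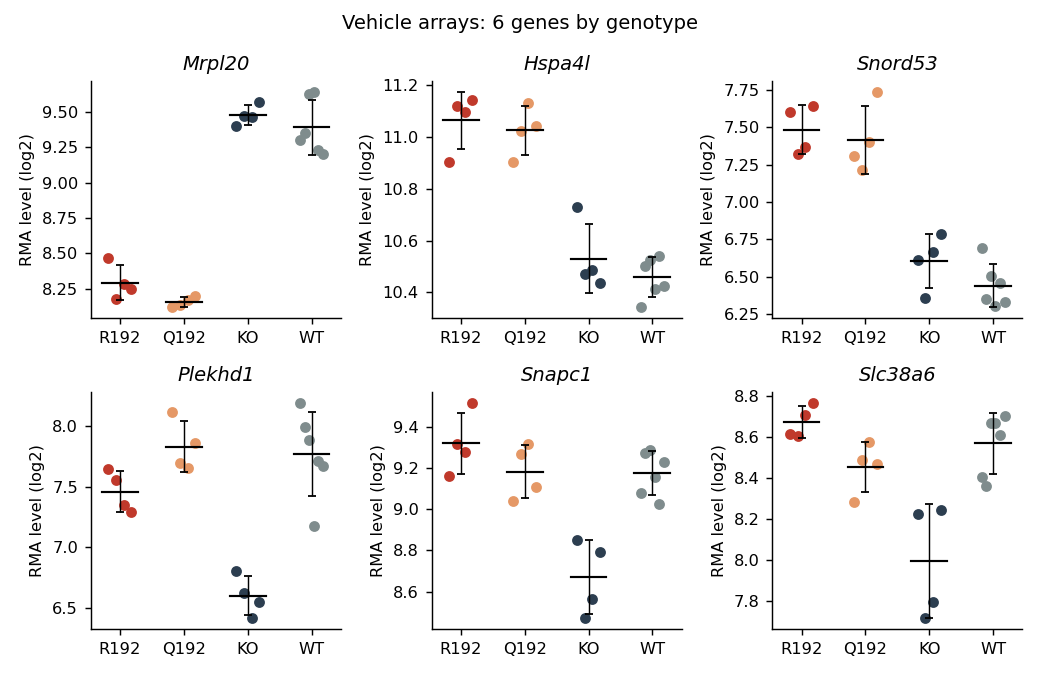
Log2 levels on the vertical axes of 6 genes in the vehicle arrays of R192 (4), Q192 (4), KO (4) and WT (6), with 1 point per array, a bar at the mean and whiskers of 1 SD. In the upper row R192 and Q192 lie on 1 side and KO and WT on the other. In the lower row KO lies below the 3 other genotypes.

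Promoter sequence is shown for the 3 of the 4 genes that the promoter table holds, and for Snapc1. With all arrays in the fit, Snapc1 passed at both CPO doses below and did not pass on vehicle. Mrpl20 was lower in R192 and the others were higher. The start regions are set side by side. They are RefSeq sequences of GRCm38.p6, from 250 bases before to 50 after the annotated start, in the direction of the gene. Capitals mark matches, on either strand, to the CCAAT box (CCAAT), the GC box (GGGCGG), the TATA box (TATAAA) and a heat shock element (GAANNTTC).
Mrpl20, chr4:155802628-155802927, plus strand: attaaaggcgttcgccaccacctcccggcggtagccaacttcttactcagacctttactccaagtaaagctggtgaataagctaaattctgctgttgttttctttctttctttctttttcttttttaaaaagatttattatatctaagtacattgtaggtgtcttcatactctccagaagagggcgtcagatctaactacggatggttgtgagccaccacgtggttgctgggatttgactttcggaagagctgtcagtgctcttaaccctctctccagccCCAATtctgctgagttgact
Hspa4l, chr3:40745363-40745662, plus strand: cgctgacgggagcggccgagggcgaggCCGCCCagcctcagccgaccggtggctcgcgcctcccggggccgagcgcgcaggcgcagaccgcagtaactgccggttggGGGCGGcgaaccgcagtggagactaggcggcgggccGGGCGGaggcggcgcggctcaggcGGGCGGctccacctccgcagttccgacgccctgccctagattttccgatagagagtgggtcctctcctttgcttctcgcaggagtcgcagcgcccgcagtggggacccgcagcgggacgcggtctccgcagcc
Plekhd1, chr12:80692351-80692650, plus strand: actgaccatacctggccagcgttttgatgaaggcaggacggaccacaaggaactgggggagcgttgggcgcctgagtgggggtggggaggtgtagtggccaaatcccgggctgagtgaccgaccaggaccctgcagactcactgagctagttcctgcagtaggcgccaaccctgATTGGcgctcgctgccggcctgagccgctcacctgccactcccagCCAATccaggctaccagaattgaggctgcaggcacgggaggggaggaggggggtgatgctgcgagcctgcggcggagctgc
Snapc1, chr12:73964247-73964546, plus strand: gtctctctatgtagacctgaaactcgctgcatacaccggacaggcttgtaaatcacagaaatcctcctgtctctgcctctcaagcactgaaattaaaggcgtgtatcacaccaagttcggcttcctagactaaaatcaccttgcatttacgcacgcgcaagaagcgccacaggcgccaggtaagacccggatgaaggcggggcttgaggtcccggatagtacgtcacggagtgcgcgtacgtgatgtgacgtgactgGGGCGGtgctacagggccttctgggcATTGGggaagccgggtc
The Hspa4l window held 4 GC boxes and was 74.7% G and C, the Mrpl20 window held 1 CCAAT box and was 43.3% G and C, the Plekhd1 window held 2 CCAAT boxes, and the Snapc1 window held 1 of each. None of the 4 windows held these letters of the heat shock element or of the TATA box. Among 32851 promoters of the table, 37.4% held a CCAAT box, 35.7% a GC box, 13.6% a TATA box and 7.86% the heat shock element. A match is a description of letters only. No motif was common to all 4 windows.

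Without replicate 5 labelled KO at CPO 0.35, 10 further genes passed, all of them separated between the 2 groups of vehicle arrays. Over all genes tested, 621 (4.15%) had R192 and KO arrays that did not overlap. The 10 genes were picked by small p in these same arrays, so their separation largely follows from that choice and is not further support. On the higher side the 9 further genes were Slc38a6, a member of an amino acid transporter family, Snapc1, a subunit of the complex that starts small nuclear RNA transcription, the long noncoding RNAs Gm1976, G530011O06Rik and Atad3aos, L3hypdh, a hydroxyproline dehydratase, Myd88, the adaptor of Toll-like receptors, Rabl2, a small GTPase of cilia, and Myom1, a structural protein of muscle. Plcb1, a phospholipase C that acts downstream of G-protein coupled receptors, was the further gene on the lower side. All but Myom1 were among the 20 genes named by rank with all arrays in the fit, and Myom1 was named after its values were seen.

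Snapc1 had log2 levels of 9.16, 9.32, 9.28 and 9.52 in R192, against 8.85, 8.47, 8.57 and 8.79 in KO. Slc38a6 had 8.61, 8.60, 8.71 and 8.77 in R192, against 8.23, 7.72, 7.79 and 8.24 in KO. In both genes the arrays labelled KO fell into a higher and a lower pair, replicates 1 and 4 above 2 and 3, and still lay below all R192 arrays. The difference of Snapc1 was +0.63 (SE 0.13, limma adjusted p = 0.0622 with all arrays and 7.3e-05 without the one), and that of Slc38a6 was +0.66 (SE 0.14, adjusted p = 0.0723 and 1.35e-05).

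Gm1976 had log2 levels of 9.36, 9.49, 9.41 and 9.65 in R192, against 8.65, 8.60, 7.72 and 9.10 in KO, with a difference of +0.94 (SE 0.23, limma adjusted p = 0.213 with all arrays and 0.0124 without the one). G530011O06Rik had 7.85, 8.63, 7.88 and 8.10 in R192, against 6.99, 6.65, 6.57 and 6.87 in KO, with a difference of +1.35 (SE 0.32, adjusted p = 0.127 and 0.0251). Both noncoding RNAs varied more within a group than the 4 genes above, Gm1976 among KO arrays (SD 0.58) and G530011O06Rik among R192 arrays (SD 0.36). The remaining genes differed by less. Myd88 was +0.40 (SE 0.09), L3hypdh +0.44 (SE 0.10), Atad3aos +0.43 (SE 0.10), Rabl2 +0.49 (SE 0.12), Myom1 +0.37 (SE 0.10) and Plcb1 -0.36 (SE 0.08), with limma adjusted p between 0.0201 for Atad3aos and 0.0471 for Myom1 without the one array.

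Of the 8 lower genes next in rank with all arrays, 7 passed in neither fit, and they include 2 genes of neuronal signalling. Gabra2, an alpha subunit of the GABA-A receptor, had log2 levels of 9.29, 8.88, 8.82 and 9.08 in R192, against 9.69, 9.60, 9.58 and 9.87 in KO, a difference of -0.66 (SE 0.15, limma adjusted p = 0.0885, and 0.0631 without the one array). Syt1, the calcium sensor of synaptic vesicle release, had 11.64, 11.59, 11.59 and 11.66 in R192, against 12.15, 11.88, 12.06 and 11.74 in KO, a difference of -0.34 (SE 0.09, adjusted p = 0.3). Neither gene overlapped between the groups. Mid1, a ubiquitin ligase gene, had 8.46, 8.16, 8.22 and 8.23 in R192, against 9.11, 9.21, 9.18 and 9.31 in KO, a difference of -0.93 (SE 0.22, adjusted p = 0.139, and 0.0567 without the one array). The other 4, Abitram, Ift122 of intraflagellar transport, Tmem135 and Sec23ip, had differences of -0.26, -0.29, -0.24 and -0.26.

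Position on the chromosomes was read from the order of tested genes in the RefSeq gene table. Chromosome 12 held 4 of the 20 genes named by rank, Plekhd1, Snapc1, Slc38a6 and L3hypdh, all higher in R192. Chromosome 4 held 3 of the 20, and chromosomes 7, 17 and X held 2 each. On chromosome 12, the stretch from L3hypdh to Snapc1 spans 17 tested genes, both ends counted. Of these, 6 had an unadjusted p under 0.05 (limma), 5 higher and 1 lower, with the named L3hypdh, Slc38a6 and Snapc1 among them. A further 43 tested genes lie between Snapc1 and Plekhd1. Over the chromosome as a whole, 43 of 551 tested genes (7.8%) had such a p, against 6.17% of all genes. Chromosomes 4 (7.92%), 15 (7.81%) and 9 (7.51%) had similar shares. On chromosome 17, the stretch from Snord53 to Gm1976 spans 87 tested genes, of which 13 had such a p, 8 higher and 5 lower, both ends included. The ends of these stretches were picked by small p in these same arrays. Their counts therefore cannot be set against the share of all genes. On chromosome 4, Atad3aos and Mrpl20 are separated by 2 tested genes and differed in opposite directions. Of the 20 tested genes nearest to Mrpl20, 5 had an unadjusted p under 0.05 (limma). On the X chromosome Mid1 and G530011O06Rik are adjacent among tested genes, Mid1 lower and G530011O06Rik higher in R192. Among the 20 tested genes nearest to Pon1 on chromosome 6, 0 passed and 1 had an unadjusted p under 0.05 (limma), with log2 differences from -0.21 to +0.31.

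The same genotype difference was read in the CPO arrays, which share no array with the vehicle comparison. At CPO 0.35, 8 genes passed between R192 and KO (0.0535% of those tested), and all 4 of the vehicle genes were among them. At CPO 0.5, 14 genes passed (0.0937%), with Mrpl20, Hspa4l and Snord53 among them and Plekhd1 at a limma adjusted p of 0.0628. Of all 20 genes named by rank, 19 had the same direction at CPO 0.35 and 20 at CPO 0.5. The share of all tested genes that kept their direction is not given, so these counts have no background beside them. The genes were ranked in the vehicle arrays, and the CPO arrays enter the same variance estimate, so the comparisons are separate in their means but not in their errors.

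Mrpl20 differed by a log2 of -1.18 (SE 0.18) on vehicle, -0.92 (SE 0.16) at CPO 0.35 and -1.26 (SE 0.19) at CPO 0.5, with limma adjusted p of 0.0026 and 0.000108 at the 2 doses. Hspa4l differed by +0.53, +0.44 and +0.64, Snord53 by +0.87, +0.74 and +1.26, and Plekhd1 by +0.85, +0.97 and +0.75 in the same order. The smaller value at CPO 0.35 in 3 of the 4 goes with replicate 5 labelled KO. It had a Mrpl20 level of 7.88, against 9.36 to 9.52 in the 4 other KO arrays and 8.06 to 8.20 in the 5 R192 arrays of that dose, and a Snord53 level of 7.90, against 6.25 to 6.62 in the 4 and 7.43 to 7.75 in the 5. Without it, the difference of Mrpl20 at CPO 0.35 was -1.30, that of Hspa4l +0.59, that of Snord53 +1.09 and that of Plekhd1 +1.16.

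**Figure D3:**
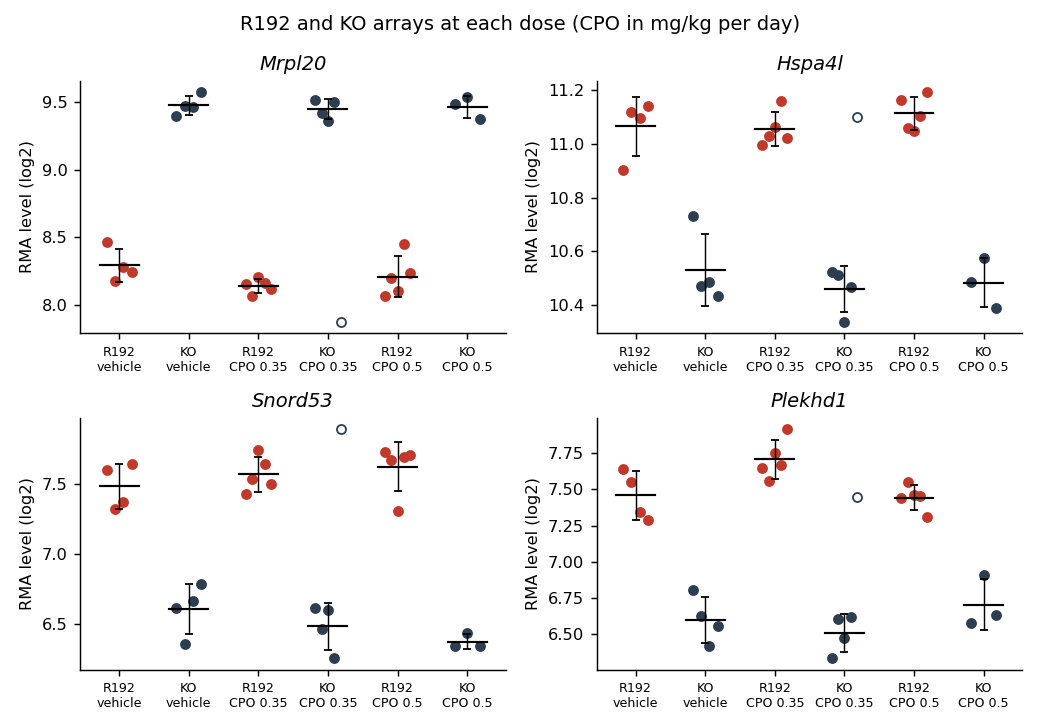
Log2 levels on the vertical axes of the 4 genes that passed, in R192 and KO arrays on vehicle (4 and 4), at CPO 0.35 (5 and 5) and at CPO 0.5 mg/kg per day (5 and 3). Points are arrays, and bars and whiskers give the mean and SD without the open circle, replicate 5 labelled KO at CPO 0.35, which lies on the R192 side of each panel.

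Without that array, 39 genes passed at CPO 0.35 (0.261%) and 272 at CPO 0.5 (1.82%). Of the 14 genes that then passed on vehicle, 10 passed at CPO 0.35, 9 at CPO 0.5 and 8 at both, and all 14 had the same direction in each. The array left out lay nearer to R192 in all 14, and 13 of them are among the 20 genes in which it was first compared. Leaving it out therefore favours these genes at CPO 0.35, and their agreement at that dose is not separate support. It also lowers the shared error of such genes in the other comparisons. For Mrpl20 the SE went from 0.18 to 0.11 on vehicle and from 0.19 to 0.12 at CPO 0.5. The calls made without this array on vehicle and at CPO 0.5 therefore depend on that choice too. Those that passed on vehicle and at neither dose were Plcb1, Myd88 and Rabl2. Plcb1 differed by -0.36 on vehicle, -0.13 at CPO 0.35 and -0.06 at CPO 0.5, and Rabl2 by +0.49, +0.23 and +0.23. A change of the R192 minus KO difference between vehicle and either dose was tested directly for every gene, and 0 genes passed (0%) for CPO 0.35 and 0 (0%) for CPO 0.5 (limma), while 513 and 491 had p under 0.05 before adjustment. Leaving out the array also gave 0 (0%) and 0 (0%), with 621 and 594.

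**Figure D4:**
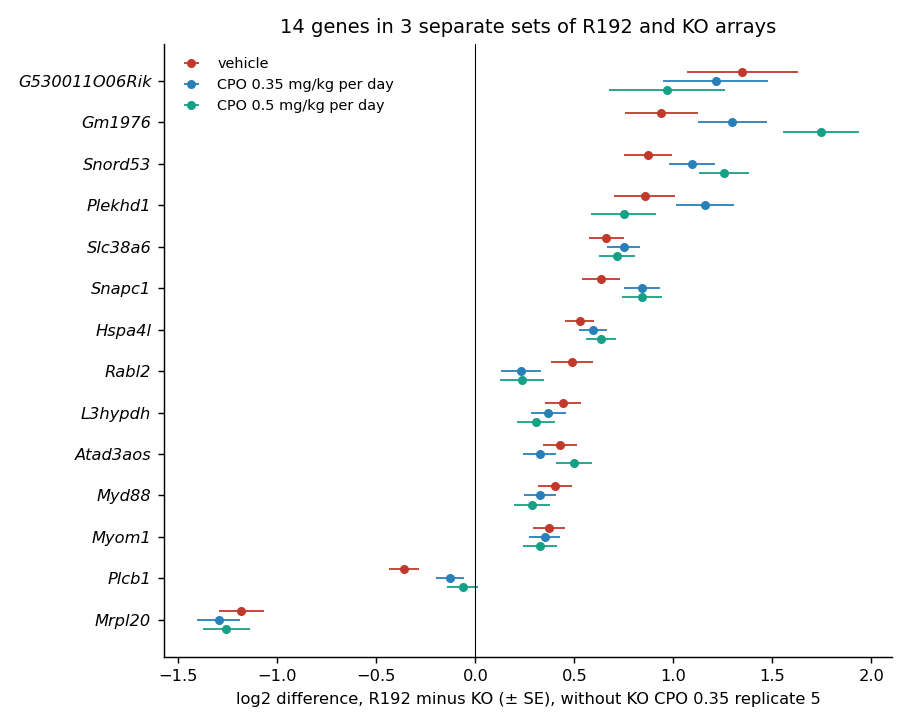
Log2 differences (R192 minus KO, horizontal axis, with whiskers of 1 SE) of the 14 genes that pass on vehicle without KO CPO 0.35 replicate 5, for vehicle, CPO 0.35 and CPO 0.5. The 3 values of a gene lie on the same side of 0 in all 14 genes, and the values of Plcb1 at both CPO doses lie closest to 0.

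The other genotypes on vehicle separate the named genes by which group stands apart. Q192 and R192 share the KO arrays as their reference, so values are given side by side. Between Q192 and KO, 15 genes passed (0.100%), and between R192 and Q192, 4 genes passed (0.0268%). Mrpl20 differed by -1.33 between Q192 and KO (SE 0.18), Hspa4l by +0.50 (SE 0.09), Plekhd1 by +1.23 (SE 0.17) and Snord53 by +0.81 (SE 0.18), and between R192 and Q192 the differences were +0.15, +0.03, -0.37 and +0.06 in the same order. For Mrpl20, Q192 averaged 8.15 ± 0.04 (SD, n = 4) and WT 9.39 ± 0.19 (n = 6), so both transgenic groups were low and KO lay within the WT range. Hspa4l was 11.03 ± 0.09 in Q192 and 10.46 ± 0.08 in WT, and Snord53 was 7.41 ± 0.23 in Q192 and 6.44 ± 0.15 in WT, which again put both transgenic groups apart.

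Plekhd1 had the other arrangement, with 7.83 ± 0.21 in Q192 and 7.77 ± 0.35 in WT, so that KO was the low group. Snapc1 averaged 9.18 ± 0.13 in Q192 and 9.17 ± 0.11 in WT, Slc38a6 8.45 ± 0.12 and 8.57 ± 0.15, Gm1976 9.33 ± 0.16 and 9.46 ± 0.16, and Myd88 7.61 ± 0.04 and 7.75 ± 0.17. In each of these the KO mean was below the 3 other genotypes. Plekhd1, Snapc1 and Slc38a6 are 3 of the 4 genes named on chromosome 12. Gabra2 followed the transgenic groups, with 8.55 ± 0.28 in Q192 and 9.61 ± 0.18 in WT, against 9.02 ± 0.21 in R192 and 9.69 ± 0.13 in KO. A deletion in Gabra2 that lowers its RNA is known to separate C57BL/6J from other C57BL/6 substrains, and of the 9 tested genes on a list of such substrain genes, 4 were higher in R192 and 5 lower, and 0 passed (limma), with Gabra2 and Entpd4 (+0.38, SE 0.14, adjusted p = 0.747) at an unadjusted p under 0.05.

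The genes nearest to the study's question did not pass. Ache, the acetylcholinesterase that CPO inhibits, had log2 levels of 8.72, 8.50, 8.70 and 8.32 in R192, against 7.80, 8.94, 8.60 and 8.56 in KO, a difference of +0.11 (SE 0.22, limma adjusted p = 0.92), and without KO replicate 1 the difference was -0.14. Bche, butyrylcholinesterase, had 7.53, 8.02, 7.70 and 8.05 in R192, against 7.66, 7.40, 7.48 and 7.62 in KO, a difference of +0.28 (SE 0.15, adjusted p = 0.78). Pon2 and Pon3, the intracellular and the lipoprotein-bound relatives of Pon1, differed by -0.10 (SE 0.10) and +0.08 (SE 0.16). All 5 of these genes overlapped between the groups. Among 8 genes of cholinesterases and the cholinergic presynapse, 8 were higher in R192 with a median log2 difference of +0.15, which was +0.06 without KO replicate 1 and +0.24 without KO replicate 2. At CPO 0.35 all 8 were lower with all arrays, with a median of -0.15, and 6 of 8 without replicate 5 labelled KO, with a median of -0.19. At CPO 0.5 6 were higher, with a median of +0.07.

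Gene lists are described by their counts and medians, beside all 14949 genes, of which 8049 (53.8%) were higher in R192, with a median log2 difference of +0.01 and 10th and 90th percentiles of -0.14 and +0.15. In these bulk samples fewer cells of a type and less RNA per cell cannot be told apart. Ribosomal protein genes, which encode the cytosolic ribosome, were higher in R192 in 34 of 35 tested members, with a median of +0.15, and 11 of them had an unadjusted p under 0.05, all higher, against 3.12% of all genes on that side. Of the list, 0 passed (limma). Rplp1, a protein of the ribosomal stalk, had log2 levels of 12.33, 12.28, 12.37 and 12.23 in R192, against 11.99, 12.03, 12.05 and 12.10 in KO (+0.26, SE 0.09, adjusted p = 0.714). The list's mean level was 11.05 ± 0.05 in R192 and 10.91 ± 0.06 in KO (SD, n = 4 each), with R192 replicate 3 (10.98) just below KO replicate 1 (10.99). In the CPO arrays all 35 members were higher in R192 at each dose, with medians of +0.17 at 0.35 and +0.16 at 0.5. On vehicle the list averaged 10.85 ± 0.02 in Q192 and 10.80 ± 0.16 in WT.

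Microglial markers were higher in R192 in 18 of 21 members, with a median of +0.17 (+0.11 without KO replicate 3), and 4 had an unadjusted p under 0.05, all higher, against 3.12% of all genes on that side. P2ry12, the purinergic receptor by which resting microglia sense nucleotides, had log2 levels of 7.28, 7.54, 7.35 and 7.67 in R192, against 6.90, 6.92, 6.88 and 7.27 in KO (+0.46, SE 0.13, limma adjusted p = 0.394). P2ry13, its neighbour in the same receptor family, was +0.41 (SE 0.14, adjusted p = 0.716). The list's medians at the CPO doses were +0.14 (19 of 21 higher) and +0.23 (20 of 21 higher). The list's mean on vehicle was 8.08 ± 0.10 in R192 and 7.91 ± 0.08 in KO, with overlap. Q192 averaged 8.06 ± 0.03 and WT 8.13 ± 0.25, so that KO had the lowest mean of the genotypes.

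Of 22 Purkinje cell markers 21 were lower in R192, with a median of -0.25, and of 22 granule neuron markers 21 were lower, with a median of -0.23. Slc1a6, the glutamate transporter of Purkinje cells, had log2 levels of 8.17, 8.14, 8.29 and 7.99 in R192, against 8.75, 8.95, 9.06 and 8.09 in KO (-0.55, SE 0.25, limma adjusted p = 0.78), and Kcnd2, a potassium channel gene of granule neurons, had 10.92, 10.90, 10.85 and 10.76 in R192, against 11.42, 11.41, 11.35 and 10.81 in KO (-0.38, SE 0.15, adjusted p = 0.747). In both genes 3 arrays labelled KO were above all R192 arrays and KO replicate 4 lay among them. Of these 44 genes 0 passed and 3 had an unadjusted p under 0.05 (limma), against 6.17% of all genes. The Purkinje list averaged 10.19 in R192, 10.46 in KO and 10.39 in Q192 on vehicle. The granule neuron list averaged 10.14, 10.42 and 10.45. Single WT arrays on vehicle ranged more widely, from 9.49 to 10.74 for Purkinje markers and from 9.09 to 11.00 for granule neuron markers. The interneuron and granule cell precursor lists lay near 0. Of 14 cerebellar interneuron markers 6 were higher and 8 lower (median -0.05). Of 11 granule cell precursor markers 6 were higher and 5 lower (median +0.03). For Purkinje and granule neuron markers, in this order, the medians at CPO 0.35 were +0.07 and +0.05. They were -0.02 and -0.06 without replicate 5 labelled KO, and -0.42 and -0.38 at CPO 0.5.

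Markers of neighbouring tissue also had a median away from that of all genes. Brainstem and midbrain neuron markers were higher in R192 in 27 of 32 members, with a median of +0.30 (+0.19 without KO replicate 1), and the list's mean level was 7.87, 7.98, 8.07 and 7.93 in R192, against 7.45, 7.86, 7.48 and 7.95 in KO. KO replicates 1 and 3 were low, KO replicate 2 lay just below the lowest R192 array, and KO replicate 4 lay within the R192 range. Hoxb3, a hindbrain patterning gene, was +0.29 (SE 0.09, limma adjusted p = 0.527). At CPO 0.35 the list's median was -0.09 and at CPO 0.5 it was +0.17. The defining markers of the tissue, Purkinje and granule genes, were well above the level filter in all 8 arrays (list means from 9.94 to 10.62), and the part of neighbouring tissue in the list differences was not tested. The 4 genes that passed did so also with the mean of the brainstem markers as a covariate, where 7 genes passed in all. That mean itself differed with the groups (7.96 ± 0.09 in R192 and 7.69 ± 0.26 in KO, SD, n = 4 each). The fit with this covariate is therefore no test of the part of neighbouring tissue.

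**Figure D5:**
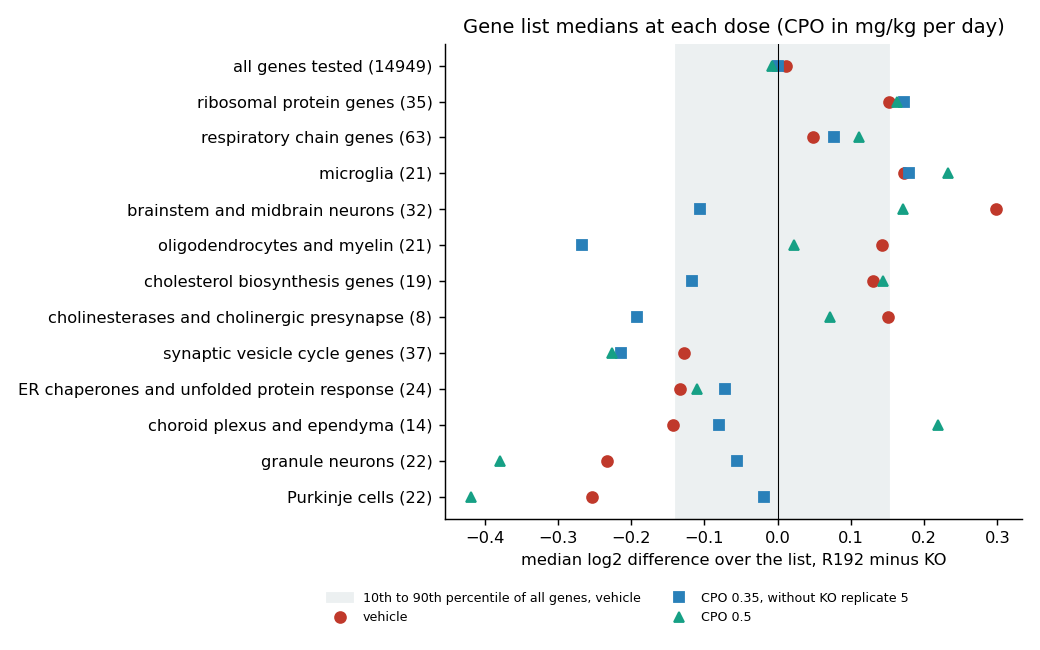
Median log2 difference (R192 minus KO, horizontal axis) over the tested members of 12 gene lists and over all genes, with the number of members in brackets, on vehicle (circles), at CPO 0.35 without KO replicate 5 (squares) and at CPO 0.5 (triangles). The grey band spans the 10th to 90th percentile of single genes on vehicle. Ribosomal protein genes and microglial markers lie at or above +0.15 in all 3 sets, while brainstem, myelin and cholesterol genes lie on both sides of 0.

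The further lists had medians between -0.14 and +0.14. Genes of the endoplasmic reticulum chaperones and the unfolded protein response were lower in 21 of 24 members, with a median of -0.13, among them Calr, the lectin chaperone calreticulin (-0.43, SE 0.15, limma adjusted p = 0.707), and Sel1l, of the degradation complex (-0.28, SE 0.10, adjusted p = 0.73). Synaptic vesicle cycle genes were lower in 26 of 37, with a median of -0.13. Cholesterol biosynthesis genes were higher in 18 of 19 on vehicle, with a median of +0.13, which was +0.05 without KO replicate 1 and +0.21 without KO replicate 2. At CPO 0.35 they were higher in 3 of 19 (median -0.06), and in 4 of 19 without replicate 5 labelled KO (median -0.12). Oligodendrocyte and myelin genes had a median of +0.14 with all arrays, -0.05 without KO replicate 1 and +0.24 without KO replicate 2. Choroid plexus and ependymal genes had a median of -0.14 with all arrays, +0.05 without KO replicate 1, -0.24 without KO replicate 2 and -0.08 without R192 replicate 3. Of 24 genes of glutathione and oxidative stress, 14 were higher (median +0.02), and of 17 cytochrome P450 and phase II genes, 9 (median +0.02). Of all 34 lists, 1, that of heat shock genes, had a member that passed (limma).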

How the data were processed

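RNA was hybridised to Affymetrix Mouse Gene 1.0 ST arrays. The deposited values were taken as log2 levels made by the authors with Affymetrix Expression Console 1.1 and RMA, per the submitters' processing notes, since they range from 1.15 to 14.80; the notes do not state the log base. Of 35557 probe sets, 21789 had 1 gene symbol, and the brightest probe set was taken for genes with several. Genes above the 25th percentile (6.44) were tested, without 4 Y-linked genes. limma 3.58.1 in R 4.3.3 fitted 12 group means over 55 arrays, with array date as a covariate and a correlation of 0.131 between arrays of the same description number, whose meaning the labels do not state. Tests are two-sided. Figures were drawn in Python 3.11.15.

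The members, lists and rules were chosen with earlier results of these data known. Named were all passing genes, the 8 next on each side, Pon1, Pon2, Pon3, Ache and Bche, and up to 2 members per list. On simulated data with 14949 genes the vehicle comparison recovered 82.1% of genes changed by 0.5 and all changed by 1 or 2 (log2 units), and 12 unchanged genes were called. The simulation changed 67, 67 and 66 genes by these sizes, gave every array the same spread and let genes vary independently. Real arrays of a group differed from each other by unequal amounts, so the rates need not hold for them. Arrays are limited in precision by their number. No 2 arrays of a group held identical values. The smallest root mean square difference over 12 pairs, 0.14, was between KO replicates 2 and 3, which share a description number, and whether they come from 1 animal is not stated. Alternatives left out the date, the correlation, the filter, single arrays or replicate 5 labelled KO at CPO 0.35, averaged arrays of 1 number, weighted arrays or added covariates. 3 alternatives were chosen after seeing the data: granule neuron markers as a covariate, both KO replicates 1 and 4 left out, and averaging combined with leaving out the array named above.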

Additional observations from a re-analysis of the deposited data

Results flagged for a closer look

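Within groups of 4 arrays, 120 sets of values were examined for an array far from the others, and 6 sets had one. Chance marks about 1 in 20 such sets. In R192, replicate 3 had a ribosomal protein mean of 10.98, against 11.07 to 11.08 in the 3 others. Among arrays labelled KO, replicate 1 had an Hspa4l level of 10.73, against 10.44 to 10.49 in the others, a glutathione and oxidative stress mean of 9.44, against 9.51 to 9.52, a glucocorticoid-responsive mean of 9.14, against 9.03 to 9.04, and an endothelium and pericyte mean of 8.66, against 8.82 to 8.85. Replicate 4 labelled KO had an Xist level of 11.26, against 5.52 to 5.82 in the others.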

How the results depend on the processing

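The 4 passing genes on vehicle became 0 on date 1 alone, 1 on date 2 alone, 10 without the number correlation, 0 with arrays of the same number averaged, 2 among genes above the median level, 1 with each array centred on its median, 1270 with array quality weights, 7 with brainstem markers as a covariate and 14 without replicate 5 labelled KO at CPO 0.35. Averaging arrays of the same number and leaving out that array together gave 16, an alternative chosen after seeing the data. The fits of averaged arrays also had no date covariate. Leaving out single vehicle arrays gave 1 to 6. Both counts of 0 stood beside 1023 genes (date 1) and 1166 genes (averaged) at an unadjusted p under 0.05 (limma). Mrpl20 kept its direction in 27 of 27 alternatives and passed in 25, Hspa4l passed in 18 of 27, Snord53 in 14 of 26 and Plekhd1 in 13 of 26. At CPO 0.35 the 8 genes became 1 (averaged), 4 (above the median), 126 (weights), 19 (brainstem covariate), 39 (without replicate 5 labelled KO) and 21 (averaged and without it), with 2 to 39 on leaving out single arrays. At CPO 0.5 the 14 became 9 (no date), 119 (no correlation), 1 (averaged), 2925 (weights), 37 (brainstem covariate) and 272 (without replicate 5 labelled KO at CPO 0.35), with 5 to 16 on leaving out single arrays. The cause of these shifts was not tested.

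With the replicate block, 7 genes passed on vehicle, also 7 in the 8 arrays alone, and 6 at CPO 0.5. The replicate numbers do not pair the samples: the deviations of same-numbered R192 and KO arrays correlated at -0.313, -0.432, 0.35 and 0.445, and 1 of 4 R192 arrays correlated best with its own number. The block moved no other count by over 1.5 times. Pon1 ranged from -0.0888 to 0.0413 on leaving out single vehicle arrays, Pon3 from -0.004 to 0.2094 and Ache from -0.1351 to 0.254. Pon1 turned to 0.031 (date 2), 0.0975 (weights), 0.0224 (sex score), 0.0643 (brainstem), 0.0413 (without KO replicate 1), 0.0325 (without KO replicate 4), 0.0297 (without R192 replicate 1) and 0.157 (without both KO replicates 1 and 4). Pon3 turned to -0.004 (without R192 replicate 2) and -0.0051 (granule covariate). Ache turned to -0.069 (date 2), -0.107 (weights), -0.177 (brainstem), -0.135 (without KO replicate 1) and -0.209 (without both). Of 34 list medians under every alternative, 46 of 918 values moved by more than 1 SD between arrays.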
